A study of Mus musculus with 53 samples.

Results

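Esr1, Esr2, Pgr and Greb1 were followed through 53 RNA-seq libraries of mouse intestine in 11 groups. The 4 genes were chosen by symbol from the 55421 genes of the count table, with no threshold on their values. Esr1 encodes oestrogen receptor alpha and Esr2 oestrogen receptor beta, while Pgr, the progesterone receptor, and Greb1, a cofactor of oestrogen receptor alpha, are classical genes switched on by oestrogen. Earlier results of these data were known when the genes were chosen, so the p-values below describe these libraries and are no independent evidence.

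Oestrogen receptors are ligand-activated transcription factors that bind DNA as dimers and recruit coactivators or corepressors. Oestrogen receptor beta is the form usually described in colonic epithelium, and oestrogen receptor alpha is better known from the stroma of many organs and from the breast and uterus. Tamoxifen binds the ligand-binding domain of these receptors, and a CreER transgene places such a domain behind the Cre recombinase so that tamoxifen activates the recombinase.

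Every library carries the label VilCreER+, including the wild-type (WT) groups, and the Villin promoter drives this CreER transgene in intestinal epithelium. All mice received tamoxifen. In the proximal colon there were 4 WT, 4 Alk5fl/fl (designated A), 4 A given sulindac at 0.4 g/L in drinking water, 5 BrafV600E/+ Alk5fl/fl (designated BA) and 5 BA libraries given 4 antibiotics, all taken 30 days after induction (d30), as well as 3 WT tissues with no day given and 4 primary BA tumours. In the small intestine (SI) there were 6 WT and 10 Apcfl/fl libraries from day 4, 3 further WT tissues and 5 primary tumours of Apcfl/+ mice. The labels give a mixed C57BL/6J N6 background for the day 4 and colon groups and an inbred C57BL6/J N9 background for the WT SI and Apcfl/+ tumour groups. The labels give neither age nor sex, and nothing in them says whether libraries of a group came from separate mice, so the p-values measure only the spread between these libraries. No group lacks the transgene label, and the counts pool all 19 exon blocks of Esr1, so reads from a receptor domain within the transgene and reads from native Esr1 cannot be told apart. The species of that domain was not given in the sources used here.

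Library totals ran from 516985 to 32824795 counts with a median of 18356939, and the lowest belonged to Apcfl/fl replicate 1, which held 3 Esr1 reads. The samples were bulk tissue, in which fewer cells of a type and less RNA per cell cannot be told apart. Whole-gene levels of the targeted genes are given in CPM, the count of a gene scaled to the library total. For Tgfbr1 (the gene for ALK5) the d30 A and d30 WT libraries overlapped, with means of 46.8 and 52.1 CPM. For Apc the day 4 libraries overlapped, with means of 134 CPM in Apcfl/fl and 82.7 CPM in WT. Tumours did not overlap their WT tissue in these genes. Tgfbr1 was higher in BA tumours, whose lowest library had 70.8 CPM beside 54.7 CPM in the highest WT proximal colon library. Apc was lower in Apcfl/+ tumours, whose highest library had 178 CPM beside 184 CPM in the lowest WT SI library. These counts pool deleted and kept exons and check no genotype. Gm13394, a processed pseudogene on chromosome 2, stood either under 4 CPM in 20 libraries or over 45 CPM in 33 libraries, and 96.5% of its 36-base words also occur in other transcripts, most of them of Gapdh. The Y-linked gene Ddx3y passed 10 CPM in 37 libraries, in 0 of 3 WT proximal colon and 3 of 4 BA tumour libraries.

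On the GRCm38 build with GENCODE M21 genes, Esr1 (ENSMUSG00000019768) lies on chromosome 10 from 4611593 to 5005614 on the plus strand and has 13661 exonic bases. Esr2 (ENSMUSG00000021055) lies on chromosome 12 from 76120419 to 76177259 on the minus strand, Pgr (ENSMUSG00000031870) on chromosome 9 from 8899833 to 8968611 on the plus strand, and Greb1 (ENSMUSG00000036523) on chromosome 12 from 16670615 to 16800886 on the minus strand. Esr1, Esr2 and Pgr share no exonic base with another gene, and between 0.0118% and 1.33% of their 36-base words occur in transcripts of other genes. Greb1 shares 736 of its 9580 exonic bases with Gm48140 on the opposite strand, and the strand setting of the counting is not given in the sources used here, so a small part of the Greb1 counts is uncertain.

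The bases upstream of the start sites of the pair of oestrogen-responsive genes show what receptor sequence lies close to each gene. They come from RefSeq on GRCm38.p6, with the 250 bases before the start written 5′ to 3′ on the strand of the gene, from chr12:16800887-16801136 for Greb1 (minus strand) and chr9:8899583-8899832 for Pgr (plus strand). Capitals mark GGTCA or its reverse complement TGACC, an arm of the oestrogen response element, and both strands were searched.
Greb1: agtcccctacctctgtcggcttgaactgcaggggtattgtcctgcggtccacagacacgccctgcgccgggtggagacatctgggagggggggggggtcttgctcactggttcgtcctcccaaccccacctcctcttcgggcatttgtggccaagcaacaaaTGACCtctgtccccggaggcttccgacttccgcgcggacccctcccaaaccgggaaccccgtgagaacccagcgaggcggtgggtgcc
Pgr: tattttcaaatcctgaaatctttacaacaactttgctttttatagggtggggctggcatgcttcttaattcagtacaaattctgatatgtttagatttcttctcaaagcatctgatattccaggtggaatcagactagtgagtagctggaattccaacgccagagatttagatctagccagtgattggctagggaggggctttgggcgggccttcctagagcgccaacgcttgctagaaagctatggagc
The Greb1 window printed here holds 1 arm, whose first base lies 88 bases before the start, and the Pgr window holds 0. The window of another Greb1 start site, at chr12:16757240-16757489, holds 2 arms, at 194 and 85 bases before that start, and is not printed. Either arm occurs in 35.2% of 32851 promoter windows of this length, and the full element GGTCANNNTGACC, which contains both arms, occurs in 0.0639% of them and in none of these 3 windows.

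Per length, the mean level of Greb1 was above that of Esr1 in 8 of 11 groups and below it in d30 A (1.23 against 1.37 CPM per kilobase of exon), d30 A with sulindac (1.143 against 1.153) and Apcfl/+ tumours (1.17 against 1.36). Group means of Greb1 ran from 1.14 to 4.56 CPM per kilobase, against 0.173 to 1.51 for Esr1, 0.0107 to 0.157 for Pgr and 0 to 0.123 for Esr2. In reads, Pgr had at most 37 and Esr2 at most 14 in any library, where 3 reads at the median library total are worth 0.163 CPM.

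**Figure D1:**
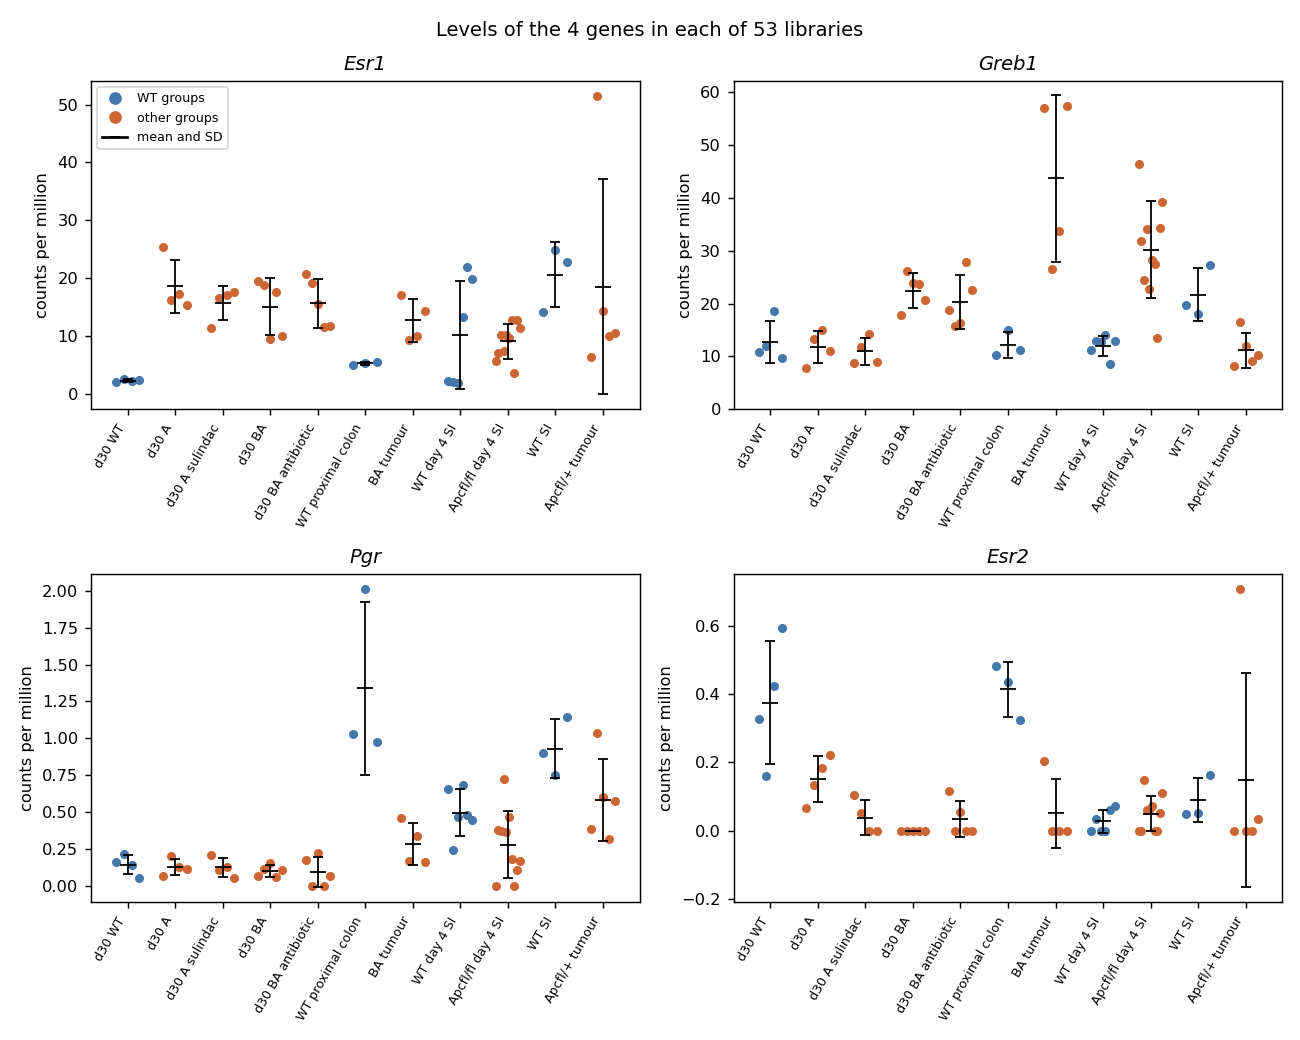
Level in CPM (y axis, linear) for Esr1, Greb1, Pgr and Esr2 in each library (points), by group (x axis), with the group mean and SD in black and WT groups in blue. Esr1 lay between 2.12 and 2.66 CPM in the d30 WT libraries and between 9.57 and 25.4 CPM in the other d30 libraries, while the highest Pgr and Esr2 levels of any library were 2.02 and 0.708 CPM.

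Esr1, the receptor itself, had its highest group mean in WT SI at 20.7 CPM ± 5.68 (SD, n = 3) and its lowest in d30 WT at 2.36 CPM ± 0.231 (SD, n = 4). Between these lay d30 A at 18.7, Apcfl/+ tumours at 18.6, d30 BA with antibiotics at 15.8, d30 A with sulindac at 15.8, d30 BA at 15.1, BA tumours at 12.8, WT on day 4 at 10.3, Apcfl/fl on day 4 at 9.17 and WT proximal colon at 5.38 CPM. Of these 10 steps between neighbouring groups, 9 had overlapping ranges and 1, from WT proximal colon to d30 WT, did not. WT groups thus stood at both ends of the order.

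The d30 comparisons concern loss of ALK5, alone or with oncogenic BRAF, in the proximal colon early after induction. Gm13394 was over 10 CPM in 0 of 4 d30 WT, 4 of 4 d30 A and 5 of 5 d30 BA libraries. Genotype and the Gm13394 level thus cannot be told apart in the comparisons with d30 WT. Esr1 was at 2.12, 2.66, 2.26 and 2.42 CPM in the 4 d30 WT libraries and at 25.4, 16.4, 17.4 and 15.4 CPM in the 4 d30 A libraries. The groups did not overlap. Esr1 rose by a log2 fold change of 2.95 (SE 0.22, edgeR quasi-likelihood test, adjusted p = 0.00037), which was the rank 2 smallest p-value of 17713 genes tested. In this comparison 25 genes passed the threshold (adjusted p under 0.05, Benjamini-Hochberg), which is 0.141% of those tested, with 17 higher and 8 lower.

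Greb1 did not follow Esr1 there. Its levels were 10.8, 12.0, 18.5 and 9.63 CPM in d30 WT and 7.83, 13.4, 14.9 and 10.9 CPM in d30 A, and the groups overlapped. The log2 fold change was -0.16 (SE 0.24, adjusted p = 0.792). Pgr had 11 reads over the 4 d30 WT libraries and 8 over the 4 d30 A libraries, too few for the low-count filter, and the mean log2 CPM differed by -0.09 (exact permutation test, two-sided, p = 0.743, where the smallest possible p is 0.0286). Of 42 genes with counts in 4 oestrogen-related lists (other nuclear receptors, receptor coregulators, enzymes of oestrogen metabolism, and further receptor targets), 36 were tested and 0 passed with edgeR, 3 had an unadjusted p under 0.05, and DESeq2 called 0. The median log2 fold change of these 36 genes was -0.05, beside 0.01 over all genes.

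Gm13394 was the only gene with a smaller p-value than Esr1 in d30 A against d30 WT, with a log2 fold change of 7.56 (SE 0.18). Its levels were 0.430 to 0.797 CPM in d30 WT and 114 to 138 CPM in d30 A. Of the 25 genes called, 17 lie on chromosome 6, among them Gapdh, named after its values were seen, which was lower by a log2 fold change of -2.39. Of the epithelial, muscle, fibroblast and immune markers 0 were called by edgeR or DESeq2, with an unadjusted p under 0.05 for 1 epithelial and 1 fibroblast marker, and Vil1, the gene whose promoter drives the transgene, changed by 0.06 on the log2 scale (SE 0.17, adjusted p = 0.895).

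In d30 BA against d30 WT both Esr1 and Greb1 rose, in a comparison in which 55.1% of 17471 genes passed, 4516 higher and 5118 lower. Esr1 was at 19.5, 18.8, 9.57, 17.7 and 10.0 CPM in d30 BA, all above the d30 WT libraries, with a log2 fold change of 2.82 (SE 0.25, adjusted p = 4.4e-06). Greb1 was at 17.9, 26.1, 24.0, 23.7 and 20.6 CPM, with a log2 fold change of 0.96 (SE 0.19, adjusted p = 0.00126). The Greb1 ranges overlapped through d30 WT replicate 3 at 18.5 CPM. Gm13394 was at 93.3 to 222 CPM in d30 BA.

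Several marker lists moved with this comparison, in which 55.1% of all genes were called, 4516 higher and 5118 lower. The 8 epithelial markers all rose, with a summed level of 20558 to 22694 CPM in d30 BA and 11280 to 13312 CPM in d30 WT. Of the muscle markers 6 of 8 fell, of the fibroblast markers 6 of 7 and of the enteric neuron markers 4 of 4. Other lists moved less or both ways, as 1 of 6 immune markers fell, and 1 mesothelium marker rose and 1 fell. The part of these markers in the Esr1, Greb1 and Esr2 values was not tested. Greb1l, a paralogue of Greb1, fell by 2.25 on the log2 scale (SE 0.30, adjusted p = 9.66e-05), opposite to Greb1.

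Directly between d30 BA and d30 A, Greb1 was higher by a log2 fold change of 1.16 (SE 0.18, adjusted p = 0.000415), with no overlap between 17.9 to 26.1 CPM in BA and 7.83 to 14.9 CPM in A. Esr1 differed by -0.08 (SE 0.24, adjusted p = 0.813), and its ranges overlapped. In this comparison 45.3% of 17128 genes passed, 3725 higher and 4036 lower. It shares its BA and A libraries with the comparisons against d30 WT, and all 8 epithelial markers were higher in BA here too.

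Esr2 was lower in d30 BA than in d30 WT, on very few reads. The d30 WT libraries held 6, 3, 9 and 11 Esr2 reads and each of the 5 d30 BA libraries held 0. Over the group, 3 reads set the floor at 0.0360 CPM, so Esr2 was at least 10.4-fold lower in d30 BA than its pooled 0.376 CPM in d30 WT, and the difference in mean log2 CPM with a prior count of 2 was -2.04 (exact permutation test, two-sided, p = 0.0159, the smallest this design allows). The d30 A libraries held 1, 2, 3 and 4 reads, and their mean differed from d30 WT by -0.84 (exact permutation p = 0.0857) and d30 BA differed from d30 A by -1.13 (exact permutation p = 0.0159). Esr2 did not pass the low-count filter in any comparison, and an interval on such counts covers counting error only. The 10.4-fold bound takes the d30 WT level, from 29 reads, as free of error.

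Neither Esr1 nor Greb1 passed the test with antibiotics or sulindac. Esr1 was at 20.8, 19.2, 15.5, 11.6 and 11.7 CPM with antibiotics, a log2 fold change of 0.02 against d30 BA (SE 0.25, adjusted p = 0.969), where 13% of 16680 genes passed, 755 higher and 1417 lower. Greb1 was at 18.8, 15.7, 16.3, 27.9 and 22.6 CPM, a log2 fold change of -0.20 (SE 0.15, adjusted p = 0.383). Both genes overlapped with the untreated libraries.

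With sulindac, Esr1 was at 11.4, 16.7, 17.2 and 17.7 CPM, a log2 fold change of -0.21 against d30 A (SE 0.21, adjusted p = 1), and Greb1 was at 8.77, 11.7, 14.3 and 9.01 CPM, a log2 fold change of -0.06 (SE 0.22, adjusted p = 1). In that comparison 0 of 17568 genes passed with edgeR (0%), 460 had an unadjusted p under 0.05 and DESeq2 called 5. Esr2 and Pgr were at 0 to 4 reads in the treated libraries of both kinds.

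**Figure D2:**
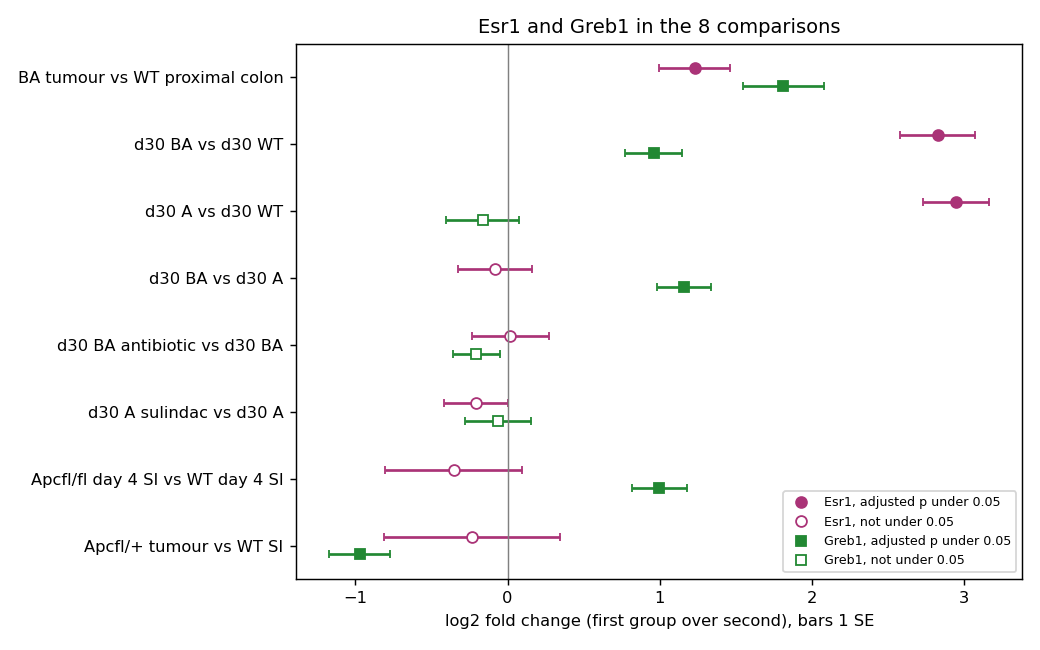
Log2 fold change of Esr1 (circles) and Greb1 (squares) with 1 SE (x axis) in the 8 comparisons (y axis), filled where the adjusted p is under 0.05. In d30 A against d30 WT Esr1 stood at 2.95 and Greb1 at -0.16, whereas in Apcfl/fl against WT on day 4 Esr1 stood at -0.35 and Greb1 at 1.00.

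Endpoint BA tumours were compared with WT proximal colon, where 13.2% of 19188 genes passed, 1431 higher and 1096 lower. Esr1 was at 17.1, 9.32, 10.1 and 14.5 CPM in the tumours and at 5.12, 5.45 and 5.56 CPM in WT tissue, with no overlap and a log2 fold change of 1.23 (SE 0.23, adjusted p = 0.0111). Greb1 was at 56.9, 26.6, 33.7 and 57.3 CPM against 10.2, 14.9 and 11.3 CPM, again with no overlap, and rose by 1.81 (SE 0.27, adjusted p = 0.00424).

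Pgr fell in these tumours while Greb1 rose. The tumours held 9, 2, 6 and 4 Pgr reads (0.162 to 0.458 CPM) and WT tissue 30, 37 and 21 reads (0.973 to 2.02 CPM), with a log2 fold change of -2.26 (SE 0.51, adjusted p = 0.0207). Beside 13.2% of all genes called here, 3 of 8 muscle markers fell and 5 of 7 immune markers rose. The summed level of the muscle markers was 1590.5 to 3251 CPM in tumours and 2165 to 8430 CPM in WT tissue. The part of the muscle and immune markers in the Pgr and Greb1 values was not tested.

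With a term for Ddx3y, Esr1 had an adjusted p of 0.0857, Greb1 of 0.0591 and Pgr of 0.228, all in the same direction. With that term the group difference rests on BA tumour replicate 1, the only tumour under 10 CPM of Ddx3y, against the 3 WT libraries. Without WT replicate 1 Esr1 had an adjusted p of 0.0682. Pgr missed the threshold without BA tumour replicate 4 or any 1 of the 3 WT libraries (log2 fold changes of -1.82 to -2.47, adjusted p = 0.0564 to 0.0752).

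Esr2 had 14, 8 and 7 reads in WT proximal colon and 4, 0, 0 and 0 reads in BA tumours. The means differed by -1.97 on the log2 CPM scale (exact permutation test, p = 0.0571, the smallest that 4 against 3 libraries allow). The BA effect on Esr1 was smaller at endpoint than on day 30, with a difference of -1.59 between the log2 fold changes (SE 0.33, edgeR interaction term, adjusted p = 0.00414), in a test that 16.3% of 20637 genes passed. The WT libraries on which the difference rests stood apart as well. They were at 5.12 to 5.56 CPM in WT proximal colon and 2.12 to 2.66 CPM in d30 WT. Ddx3y passed 10 CPM in 0 of 3 WT proximal colon libraries, 3 of 4 BA tumours and all d30 libraries. Gm13394 passed it in 0 of 3 WT proximal colon, 3 of 4 BA tumour, 0 of 4 d30 WT and 5 of 5 d30 BA libraries. The part of these marks in the difference was not tested. For Greb1 the corresponding difference was 0.85 (SE 0.33, adjusted p = 0.0895) and did not pass.

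In the small intestine on day 4 the WT libraries fell into separate sets for Esr1. Replicates 1 to 3 were at 2.30, 2.08 and 2.04 CPM and replicates 4 to 6 at 13.3, 22.0 and 19.9 CPM, while the 10 Apcfl/fl libraries ran from 3.70 through a median of 10.0 to 12.9 CPM, between the WT sets. Over all libraries the log2 fold change was -0.35 (SE 0.45, adjusted p = 0.528), where 54.2% of 17536 genes passed. The WT sets were also those with Gm13394 under 2 CPM (0.521 to 1.43) and over 50 CPM (54.0 to 126).

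The Apcfl/fl libraries were also set against each WT set, a split chosen after the values were seen. Every Apcfl/fl library lay between the WT sets, which fixes the direction of each comparison, so the values are a description with no test. Among libraries with Gm13394 under 10 CPM, 4 Apcfl/fl against 3 WT, the log2 fold change of Esr1 was 1.55 (SE 0.20), and among those over 10 CPM, 6 Apcfl/fl against 3 WT, it was -1.06 (SE 0.28). With a term for Gm13394 in 1 fit of all libraries the value was -0.07 (SE 0.37, adjusted p = 0.882).

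Greb1 showed no such split. It was at 11.3, 12.9, 12.6, 14.0, 8.56 and 12.8 CPM in the WT libraries on day 4, and ran from 13.4 through a median of 30.0 to 46.4 CPM in Apcfl/fl, overlapping only through Apcfl/fl replicate 8 at 13.4 CPM and WT replicate 4 at 14.0 CPM. Greb1 rose by 1.00 (SE 0.18, adjusted p = 0.000184). Within the libraries under and over 10 CPM of Gm13394, the split chosen after the values were seen, Greb1 rose by 1.00 and 1.02. These values are a description. Over all genes 4816 were called higher and 4688 lower.

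Pgr on day 4 stood at 6 to 16 reads in WT and 0 to 13 reads in Apcfl/fl. The mean log2 CPM was lower in Apcfl/fl by -0.89 (exact permutation test, two-sided, p = 0.0487), and it missed 0.05 without Apcfl/fl replicate 1, 7, 8, 9 or 10 or WT replicate 1, 3, 4, 5 or 6, each left out alone (permutation p = 0.0666 to 0.103). With 3 reads in 6 WT libraries and 10 reads in 10 Apcfl/fl libraries, no difference in Esr2 was detectable at this depth (permutation p = 0.407).

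Apcfl/+ tumours were compared with WT SI, where 61.5% of 20567 genes passed, 6461 higher and 6189 lower. Greb1 was lower in the tumours, at 8.11, 16.6, 11.9, 9.13 and 10.3 CPM against 19.7, 17.9 and 27.4 CPM, with no overlap and a log2 fold change of -0.97 (SE 0.20, adjusted p = 0.00318). This was the reverse of Greb1 on day 4 and in BA tumours. The difference from the day 4 effect was -1.99 (SE 0.29, interaction term, adjusted p = 5.96e-05), where 24.7% of 22202 genes passed. The BA tumour effect exceeded the Apcfl/+ tumour effect by 2.82 (SE 0.34, adjusted p = 0.000102), where 39.7% of 21668 genes passed. The WT libraries on which these differences rest stood apart as well. Greb1 was at 17.9 to 27.4 CPM in WT SI, 8.56 to 14.0 CPM in WT on day 4 and 10.2 to 14.9 CPM in WT proximal colon. The WT SI and Apcfl/+ tumour groups also have another background label. The part of these WT levels and backgrounds in the differences was not tested.

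Esr1 in the Apcfl/+ tumours was at 6.48, 51.5, 14.4, 9.99 and 10.6 CPM against 14.2, 24.9 and 22.9 CPM in WT SI. Replicate 2, at 51.5 CPM, was the highest of all 53 libraries. Its Vil1 level, 426 CPM, was the lowest of the group, beside 696 to 1048 CPM in the other tumours. The part of cell content in its values was not tested. With replicate 2 the log2 fold change of Esr1 was -0.23 (SE 0.58, adjusted p = 0.743) and without it -0.96 (adjusted p = 0.0115). The same library held 13 of the 14 Esr2 reads of its group and the most Pgr reads, 19 against 7 to 16 in the other 4, and Pgr was at -0.71 (SE 0.35, adjusted p = 0.103) with it and -0.94 (adjusted p = 0.0205) without it. Ddx3y passed 10 CPM in 1 of 5 tumours and 3 of 3 WT SI libraries, and with a term for it Esr1 was at -1.62 (SE 0.92, adjusted p = 0.196), Pgr at -1.21 (SE 0.61, adjusted p = 0.154) and Greb1 at -1.36 (SE 0.33, adjusted p = 0.0191). With that term the group difference rests on tumour replicate 1, the only tumour over 10 CPM of Ddx3y, against WT SI. Gm13394 was at 0.490 CPM in tumour replicate 2, at 0.490 to 1.90 CPM in all 5 tumours, and at 45.5 to 103 CPM in WT SI.

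Esr1 and Gm13394 stood together in the WT groups. Of the 16 WT libraries, 10 had Gm13394 at 0.430 to 1.43 CPM and Esr1 at 2.04 to 5.56 CPM, and 6 had Gm13394 at 45.5 to 126 CPM and Esr1 at 13.3 to 24.9 CPM. The sets did not overlap in Esr1. The first set held all WT libraries of the proximal colon and day 4 SI replicates 1 to 3. The second held only small intestine, WT SI and day 4 replicates 4 to 6. Tissue thus largely goes with the sets, and only the day 4 libraries split within the same tissue. Greb1, at 9.63 to 18.5 CPM in the first set and 8.56 to 27.4 CPM in the second, and Pgr, at 0.0538 to 2.02 and 0.443 to 1.14 CPM, overlapped between the sets.

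In the 37 libraries of the other groups the match was looser. The 10 with Gm13394 under 10 CPM (4 Apcfl/fl, 1 BA tumour and all 5 Apcfl/+ tumours) had Esr1 at 5.80 to 51.5 CPM, all above every WT library of the low set. The lowest, Apcfl/fl replicate 1 at 5.80 CPM, rests on 3 Esr1 reads and lies close to the highest of that WT set, 5.56 CPM. The 27 with Gm13394 over 10 CPM had Esr1 at 3.70 to 25.4 CPM. They were 6 Apcfl/fl, 3 BA tumour, 5 d30 BA, 5 d30 BA with antibiotics, 4 d30 A and 4 d30 A with sulindac. The Esr1 medians of these sets were 9.65 CPM and 15.4 CPM, and their ranges overlapped. Low Gm13394 thus went with a lower median of Esr1 here too, without the separation seen in the WT libraries. Tissue, genotype and time also differ between these sets, and their part in the medians was not tested.

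Within groups whose libraries all had high Gm13394, its level also ran with that of Esr1 in several cases, which is given as a description of few libraries. In d30 BA the 3 libraries with Gm13394 at 185 to 222 CPM had Esr1 at 17.7 to 19.5 CPM, and those at 93.3 and 106 CPM had Esr1 at 9.57 and 10.0 CPM. With antibiotics the libraries at 168 and 170 CPM had Esr1 at 19.2 and 20.8 CPM, and the 3 at 75.4 to 82.9 CPM had Esr1 at 11.6 to 15.5 CPM. In d30 A, where Gm13394 ran from 114 to 138 CPM, the library with the highest Esr1, 25.4 CPM, was not the one with the most Gm13394. Greb1 in the 3 d30 BA libraries with more Gm13394 was at 17.9 to 26.1 CPM, around the 24.0 and 20.6 CPM of the other pair.

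**Figure D3:**
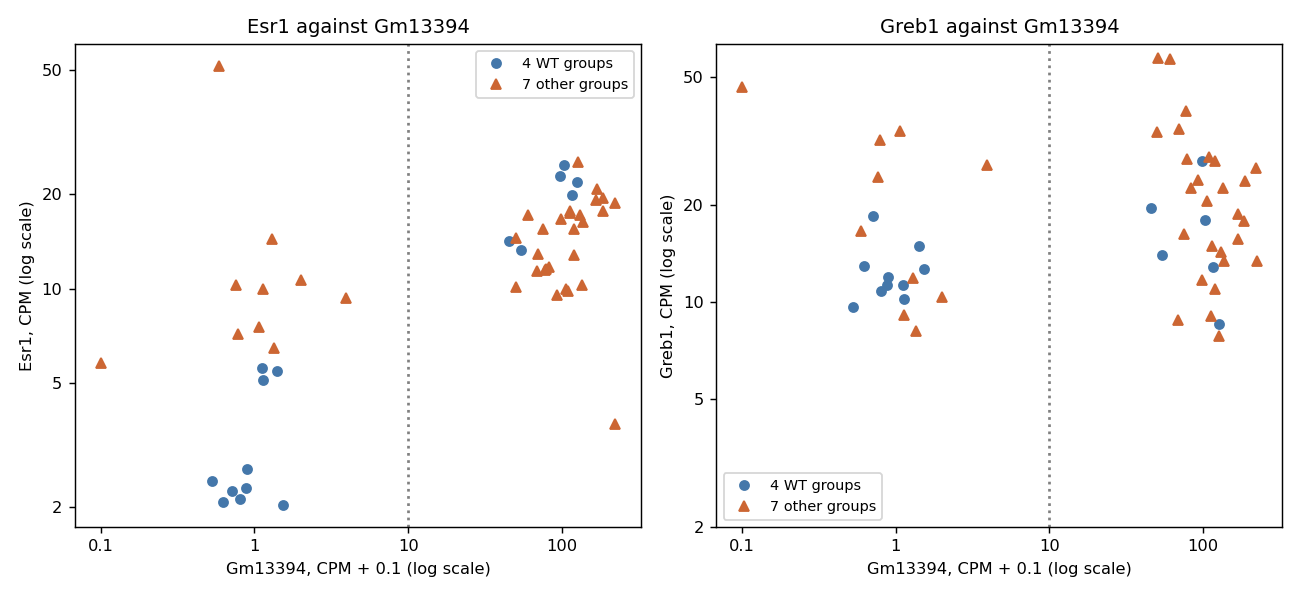
Esr1 (left) and Greb1 (right) in CPM against Gm13394 in CPM plus 0.1 (both axes log scale), 1 point per library, with WT groups as circles, other groups as triangles and a dotted line at 10 CPM. The WT libraries form separate sets in Esr1, at 2.04 to 5.56 CPM and 13.3 to 24.9 CPM, and overlap in Greb1. The higher set is all small intestine, and the lower set is mostly proximal colon.

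Over the 53 libraries and 13831 genes searched, Gm13394 was the gene most like Esr1 in TMM-normalised log2 CPM, with a Pearson r of 0.65. It was followed by Arid5a at 0.51, Slc7a11 at 0.50, and Map3k6 and Arc at 0.49. The gene most like Greb1 was Epb41l2 at 0.78, followed by Lrrk1 at 0.71, Ccnd2 at 0.69, and Rin3 and Srgap2 at 0.67. The lists share no gene. These values describe libraries of several tissues and groups, and are given with no test.

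Whether Esr1 tracked the epithelium was examined inside the Apcfl/fl group, the one group of 10, with 5 marker levels. The mean level of the 8 epithelial markers ran with Esr1, with a Pearson r of 0.87 (permutation test, adjusted p = 0.00565) and a Spearman rho of 0.77 (adjusted p = 0.0624), and r was 0.78 without the 2 farthest libraries. Those were replicate 1, with 3 Esr1 reads, and replicate 7. Replicate 8, the lowest of the group in Esr1 (3.70 CPM) and Vil1 (622 CPM), stayed in that value and in the set of 6 below. For Vil1 alone r was 0.37 (permutation test, adjusted p = 0.373), and for fibroblast markers it was 0.72 (adjusted p = 0.0474) with a rho of 0.22 (adjusted p = 0.73) and an r of -0.17 without the 2 farthest libraries. Muscle markers gave 0.23 and adipose markers 0.44 (permutation tests, adjusted p = 0.547 and 0.333). Among the 6 libraries with Gm13394 over 10 CPM, given as a description, r was 0.94 for Vil1 (rho 0.83), 0.80 for epithelial (rho 0.49), 0.76 for fibroblast (rho 0.37), 0.38 for adipose (rho 0.029) and -0.45 for muscle markers (rho -0.60). The order of the markers thus differed between all 10 libraries and these 6, and the other 4 were too few for a value. WT libraries on day 4 form separate Esr1 sets and were too few within each for such a relation.

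Of 18 further oestrogen-responsive genes, 3 rose and 0 fell of the 16 tested in BA tumours, with a median log2 fold change of 1.03 beside 0.03 over all genes and with 13.2% of all genes called. In d30 BA against WT 3 rose and 4 fell of 15, where 55.1% of all genes were called. In d30 A against WT 0 of 15 passed with edgeR, 2 had an unadjusted p under 0.05 and DESeq2 called 0, where 0.141% of all genes were called. On day 4, 5 rose and 6 fell of 16 beside 54.2% of all genes called, and in Apcfl/+ tumours 12 rose and 2 fell of 18 beside 61.5%. The shares of all genes given here count calls in either direction, and in Apcfl/+ tumours 6461 of 20567 genes were called higher. The median in Apcfl/+ tumours was 0.87 beside 0.03 over all genes. Many of these genes respond to other signals as well, and the list is not specific to the receptor.

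Among them Ccn5, a secreted matricellular protein, had the largest rise in BA tumours, from 0.0927 to 0.599 CPM in WT tissue to 6.78 to 17.4 CPM, a log2 fold change of 5.24 (SE 0.61, adjusted p = 0.00214), and rose by 1.54 in d30 BA against WT (adjusted p = 0.000775). Cxcl12, a chemokine of stromal cells, was lower in d30 BA than in d30 WT by a log2 fold change of -1.27 (SE 0.11, adjusted p = 3.2e-06) and lower than in d30 A by -1.15 (SE 0.16, adjusted p = 0.000243). Stc2, a secreted glycoprotein hormone, was higher in d30 BA than in d30 A by 1.29 (SE 0.11, adjusted p = 6.49e-06). With antibiotics it was at -0.30 (SE 0.08, adjusted p = 0.0394), a call lost without any 1 of d30 BA replicates 1 to 5 or antibiotic replicate 2 or 5 (adjusted p = 0.061 to 0.0827). On day 4 Igfbp4, which binds insulin-like growth factors, rose by 2.23 (adjusted p = 1.28e-07) and Pdzk1, a scaffold of apical membrane proteins, was lower by a log2 fold change of -1.80 (adjusted p = 1.23e-05).

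In Apcfl/+ tumours the extremes of that list were Pdzk1, at 1.75 to 17.6 CPM against 86.4 to 152 CPM in WT SI (log2 fold change -4.18, SE 0.70, adjusted p = 0.00103, and 0.0597 with the Ddx3y term), and Tff1, a secreted trefoil peptide. Tff1 had 0 or 1 reads in each WT SI library and 14 to 705 reads in the tumours (adjusted p = 0.00369), so its fold is poorly bounded.

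Of 7 other nuclear receptors 5 fell in Apcfl/+ tumours, where 61.5% of all genes were called, with Nr3c2, the mineralocorticoid receptor, at a log2 fold change of -1.42 (SE 0.24, adjusted p = 0.00117), and on day 4, with 54.2% of all genes called, 4 of 7 fell and 1 rose. Nr3c2 was at -1.38 on day 4 (adjusted p = 1.12e-05), whereas Esrrg, an orphan receptor related to the oestrogen receptors, rose by 1.23 (adjusted p = 0.00796). In d30 BA Esrrg was lower than in d30 WT by -2.77 (SE 0.36, adjusted p = 7.62e-05) and lower than in d30 A by -2.30 (adjusted p = 0.00113), where 2 of 7 receptors fell and 0 rose against d30 WT (55.1% of all genes called), and 2 of 6 fell and 1 rose against d30 A (45.3%). The one that rose was Nr3c2, at 0.63 (SE 0.15, adjusted p = 0.00477). With antibiotics Nr3c2 was at -0.39 (SE 0.10, adjusted p = 0.0295), a call lost without d30 BA replicate 1, 2 or 4 or antibiotic replicate 4 or 5 (adjusted p = 0.0503 to 0.0784). In BA tumours 0 of 6 passed with edgeR, 3 had an unadjusted p under 0.05 and DESeq2 called 2.

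Among the coregulators of the receptors, in d30 BA against d30 A 6 of 10 rose and 0 fell beside 45.3% of all genes called, with Ncoa2, a steroid receptor coactivator, at 0.84 (SE 0.22, adjusted p = 0.00968), and against d30 WT 5 rose and 1 fell beside 55.1%, with Ep300, a histone acetyltransferase, at 0.53 (adjusted p = 0.00201) and Ncoa1 at -0.54 (adjusted p = 0.000266). In Apcfl/+ tumours 6 of 10 fell and 1 rose beside 61.5% called, with Ep300 at -1.25 (SE 0.15, adjusted p = 0.000211) and Foxa1, a pioneer factor for the receptor in breast, at 2.05 (SE 0.27, adjusted p = 0.000357). Foxa1 also rose on day 4, by 1.74 (adjusted p = 2.46e-06), when 3 of 10 rose and 1 fell beside 54.2% called, the one that fell being Ncoa1 at -0.57 (SE 0.15, adjusted p = 0.00462). With edgeR 0 of the 10 passed in BA tumours, with antibiotics or with sulindac, where 3, 4 and 0 had an unadjusted p under 0.05 and DESeq2 called 0, 1 and 0.

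Of 8 genes for enzymes of oestrogen metabolism, 7 were matched to a row of the table and 4 passed the low-count filter in each comparison. Hsd17b2, which oxidises oestradiol to the weaker oestrone, was lower in BA tumours by a log2 fold change of -2.21 (SE 0.29, adjusted p = 0.0031), at 24.1 to 57.0 CPM against 146 to 286 CPM in WT tissue, and lower in d30 BA than in d30 WT by -0.67 (adjusted p = 0.000725) and than in d30 A by -0.56 (SE 0.08, adjusted p = 0.000283). Hsd17b7, which acts in the reducing direction and in cholesterol synthesis, was higher in d30 BA than in d30 WT by 0.66 (adjusted p = 0.00138) and than in d30 A by 1.04 (adjusted p = 0.000945), and higher with antibiotics than in d30 BA by 0.60 (SE 0.12, adjusted p = 0.0102). Cyp1b1, which hydroxylates oestrogens, rose by 5.50 in BA tumours (SE 1.03, adjusted p = 0.0105) and by 2.17 in Apcfl/+ tumours (SE 0.61, adjusted p = 0.0133). These Cyp1b1 calls were lost without WT proximal colon replicate 1 or 3 (adjusted p = 0.0528 and 0.0533) and without WT SI replicate 3 (adjusted p = 0.0528). With the Ddx3y term neither Hsd17b2 (-2.16, adjusted p = 0.0959) nor Cyp1b1 (3.77, adjusted p = 0.123) passed in BA tumours.

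**Figure D4:**
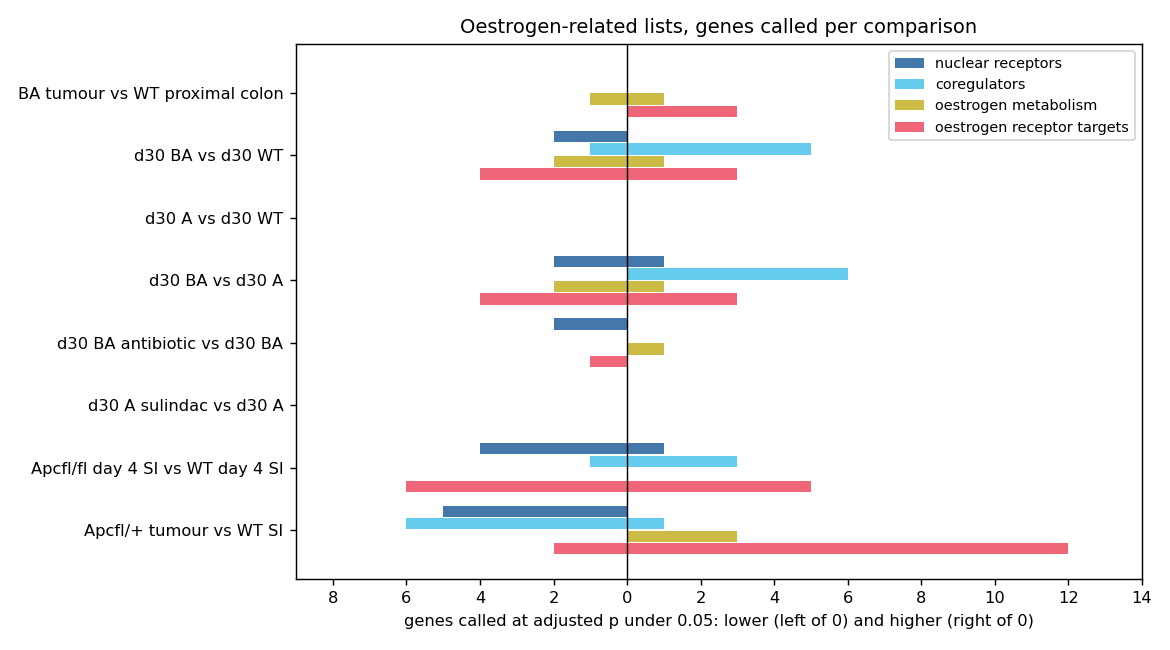
Number of genes (x axis) called lower (left of 0) and higher (right of 0) at an adjusted p under 0.05 in each of 4 oestrogen-related lists (colours), by comparison (y axis). The 0 list genes called in d30 A against d30 WT stand beside 0.141% of all genes called there. In Apcfl/+ tumours 12 receptor targets were called higher and 2 lower of 18 tested. Of all 20567 genes tested there, 6461 were called higher and 6189 lower, 61.5% in either direction.

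Greb1l, the paralogue, gave a contrast within the gene family. It was at 0.377 to 0.952 CPM in d30 BA and 2.13 to 5.11 CPM in d30 WT, and was lower than in d30 A by a log2 fold change of -2.31 (SE 0.36, adjusted p = 0.000471). With antibiotics it was higher than in d30 BA by 1.19 (SE 0.30, adjusted p = 0.0241), a call lost without d30 BA replicate 3, 4 or 5 (adjusted p = 0.0505 to 0.0633). In Apcfl/+ tumours Greb1l was at -0.85 (adjusted p = 0.00247, and 0.0628 with the Ddx3y term), the same sign as Greb1, and in d30 BA the signs were opposite.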

How the data were processed

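The deposited table holds raw counts per gene for 53 libraries, and the counts were used as deposited. Per the labels and the submitters' processing notes, the authors sequenced paired reads, checked and trimmed them with FastQC 0.11.8 and Trim Galore 0.6.4, aligned them with HISAT2 2.1.0 to GRCm38 and counted them with featureCounts 1.6.4, with the strand setting not given in the sources used here. Such gene counts pool all exons, so reads of a transgene that matches part of a gene are added to it. Groups were taken from the labels.

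For each of 8 comparisons the libraries of its groups entered a separate edgeR 4.0.16 quasi-likelihood fit (R 4.3.3) after filterByExpr and TMM scaling, two-sided, with Benjamini-Hochberg adjustment over all genes tested and a threshold of 0.05. A further 3 fits tested differences between effects. Genes removed by the filter were compared by permutation of samples on log2 CPM with a prior count of 2. Alternatives were RLE scaling, no filter, DESeq2 1.42.0, a replicate block, a term for Ddx3y, and leaving out each library, and the splits by Gm13394, the fit without the shallowest libraries and the alternatives to the tests of differences were chosen after seeing the data. The edgeR steps were tested on simulated data.

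The 4 genes and all lists were chosen with earlier results of these data known. From each list the text names, per comparison, the called gene that rose most and the one that fell most, and always Greb1l; the 5 genes most like Esr1 and Greb1 were ranked by Pearson r. Library totals ran from 516985 to 32824795, and floors of 3 counts cover counting error only. Of the list genes, 1 (Sts) was not analysed here.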

Additional observations from a re-analysis of the deposited data

Results flagged for a closer look

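Within groups of 4 to 10 libraries, 35 sets of values of the 4 genes were examined for a library far from the rest by Dixon's criterion, which chance meets in about 1 set in 20, and 4 met it. Esr1 in d30 A sulindac replicate 1, at 11.4 CPM, lay below the other 3 libraries at 16.7 to 17.7 CPM, and its Gm13394 level, 68.4 CPM, was also the lowest of the group. Apcfl/+ tumour replicate 2 stood out for Esr1 at 51.5 CPM and for Esr2 at 0.708 CPM, which is 13 reads. Esr2 in BA tumour replicate 1, at 0.204 CPM, rests on 4 reads against 0 in the other 3 tumours.

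Of 9 tests of a difference between effects on Esr1, Greb1 and Pgr, 3 passed at an adjusted p under 0.05 with edgeR. The BA effect on Esr1 differed by -1.59 on the log2 scale between endpoint and day 30. The Apc effect on Greb1 differed by -1.99 between tumours and day 4, and the BA tumour effect on Greb1 exceeded that of Apcfl/+ tumours by 2.82.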

How the results depend on the processing

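Of 462 values recomputed under other settings, 414 kept their direction and side of the threshold (counts of calls, within 1.5 times). The causes of the changes below were not tested. In BA tumours and in Apcfl/+ tumours the group difference with the Ddx3y term rests on 1 tumour library, replicate 1 of each.

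In BA tumours 2527 genes were called, against 3798 with DESeq2, 931 with a replicate block and 168 with a Ddx3y term, and 696 to 3641 with 1 library left out (696 and 1089 without WT proximal colon replicates 1 and 3, 1380 without tumour replicate 4). Esr1 there was 1.17 with the block (adjusted p = 0.0959) and 1.38 with the Ddx3y term (0.0857), Greb1 was 1.93 with that term (0.0591), and leaving out 1 library gave 1.14 to 1.31 for Esr1 and 1.65 to 2.02 for Greb1. Greb1l turned to 0.27 with the Ddx3y term, and its fall passed without tumour replicate 1 (-1.57, adjusted p = 0.0407).

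For d30 A against d30 WT, 72 genes were called with no filter, 136 with DESeq2 and 15 to 28 with 1 library left out (15 without d30 WT replicate 2, 16 without 3 or 4), while Esr1 stayed at 2.72 to 3.04 and Greb1 at -0.30 to 0.087. With antibiotics 1284 genes were called with the block, 1074 with all d30 groups in 1 fit and 1300 to 2683 with 1 library left out (1300 without antibiotic replicate 5). With sulindac 1 was called with no filter, 5 with DESeq2 and 1 with the block. In Apcfl/+ tumours 8333 were called with the block and 7030 with the Ddx3y term, and on day 4 5490 in the libraries with Gm13394 over 10 CPM.

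Esr1 on day 4 was 0.14 with the Ddx3y term, and 1.55 and -1.06 in the libraries under and over 10 CPM of Gm13394, where Greb1l was 0.11 in the latter. Other values that changed sign were not past the threshold: Esr1 in d30 BA against d30 A (0.020 with the block, -0.19 to 0.13 with 1 library left out), Esr1 with antibiotics (-0.11 to 0.13) and sulindac (-0.30 to 0.0098), Greb1 with sulindac (-0.20 to 0.073), Pgr in d30 A against WT (-0.28 to 0.042), with antibiotics (-0.37 to 0.00688) and with sulindac (-0.18 to 0.13, and 0.033 in edgeR with no filter), Esr2 in Apcfl/+ tumours (-0.79 to 0.078, and 0.58 in edgeR with no filter), and Greb1l in d30 A against WT (-0.28 to 0.29) and with sulindac (-0.16 to 0.70). Esr1 without Apcfl/+ tumour replicate 2 was -0.96 in a range of -0.96 to -0.035. The Apc tumour minus day 4 difference in Esr1 was -0.039 with RLE scaling, and the BA minus Apcfl/+ tumour difference in Greb1l was -0.14 with no filter. Without the 2 farthest libraries r of Esr1 was -0.32 with Vil1, -0.51 with muscle, -0.17 with fibroblast and -0.37 with adipose markers.

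Pair correlations of same-numbered replicates ran from -0.488 to 0.294, with no comparison in which every pair passed 0.1. In d30 BA and in d30 A against d30 WT all pair values were above 0 and 6 of 8 libraries correlated best with their own number, a hint from the data and not from the design, and the numbers were not taken to pair the libraries. With the block Greb1l (adjusted p = 0.0638) and Cyp1b1 (0.155) missed the threshold in Apcfl/+ tumours, as did Hsd17b7 (0.0597), Nr3c2 (0.0518) and Stc2 (0.0594) with antibiotics and Pgr in BA tumours (-1.92, adjusted p = 0.172). Pgr and Esr2 are limited by depth, with at most 37 and 14 reads in a library.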
